A study of Mus musculus with 6 samples.

Results

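Pyruvate made by glycolysis enters the mitochondrion through a carrier, is turned into acetyl-CoA by the pyruvate dehydrogenase (PDH) complex, and is then oxidised in the tricarboxylic acid (TCA) cycle. Here 36 genes of this route were followed: the carrier subunits, the PDH complex with the kinases and phosphatases that switch it off and on, pyruvate carboxylase, the cycle enzymes with their cytosolic forms, and the malic enzymes. The genes were chosen by name, from what their products do, but with earlier results of these data known. Shares of members that fell are therefore a description and not those of a blind choice. A gene was measured by the probe set that carried its symbol and no other, and where several did, by the one with the highest mean over all 6 arrays. This gave a value for 35 of the 36 genes, out of 19733 genes tested in all. Mpc2, the second carrier subunit, was matched to no probe set and is not analysed here.

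Gene expression was measured on 1-colour Affymetrix arrays in mouse bone marrow pre-B cells with floxed Ppp2r1a, which encodes the scaffold subunit of PP2A (protein phosphatase 2A), that had been transformed with BCR-ABL1, the fusion kinase of a B cell leukaemia. In 3 arrays the cells had received Cre recombinase, which deletes the floxed gene, and in 3 an empty vector (EV). All 6 arrays thus share BCR-ABL1 and the floxed alleles, and the EV cells, labelled wild type, still hold these alleles undeleted. The series title links PP2A to the survival of malignant pre-B cells through their redox state, and Cre against EV is its single comparison. No array here has unfloxed cells with Cre, so effects of Cre itself and of the deletion cannot be told apart. The sources used here do not give the age of the mice, the time after Cre or any selection of transduced cells. The labels number the arrays of a group as repeats without saying whether each was a culture or mouse of its own, so the p-values rest on a spread that may be technical.

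The PDH complex is the gate between glycolysis and the cycle. Its E1 enzyme is inactivated when PDH kinases (Pdk1 to Pdk4) phosphorylate the E1 alpha subunit Pdha1, and reactivated by the phosphatases Pdp1 and Pdp2. In transformed and hypoxic cells Pdk1 is a known target of hypoxia-inducible factor and holds pyruvate back from the cycle, toward lactate. Within the cycle, the NAD-dependent isocitrate dehydrogenase (Idh3) feeds the respiratory chain, while the NADP-dependent forms, Idh1 in the cytosol and Idh2 in mitochondria, make NADPH, which keeps glutathione and thioredoxin reduced.

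Values are log2 expression levels. A change is the mean of the Cre arrays minus the mean of the EV arrays on this scale, with the standard error (SE) and 95% interval of limma's fit across all genes. A gene is said to have risen or fallen when its p, adjusted by the Benjamini-Hochberg method over all 19733 genes, was below 0.05. Ppp2r1a itself read 7.12, 6.98 and 6.92 in Cre and 9.06, 9.05 and 9.06 in EV and fell 4.15-fold (limma adjusted p = 1.203e-05). All 9 measured markers of the pre-B and B lineage lay above the median of every array, and all 4 T cell, all 6 myeloid and both erythroid or megakaryocyte markers lay below it, as did 2 of 3 stromal markers. Averaged over the list, the B lineage markers read between 10.36 and 10.47 in Cre and between 10.67 and 10.73 in EV. Of the 9 markers, 2 passed, Rag1 and Dntt, and both fell. The lowest single value on the list was 6.49 in Cre and 8.73 in EV. How far Rag1 and Dntt set the list average was not tested. The myeloid list averaged between 3.92 and 3.98 in Cre and between 3.83 and 3.88 in EV, and none of its genes passed. The part of these shifts in the results was not tested. In such bulk RNA, fewer cells of a kind and less RNA per cell cannot be told apart.

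The promoters of the 3 genes that fell are shown with that of Pdk2, a kinase gene whose Cre arrays lay above its EV arrays, because 3 of these genes passed the test and Pdk2, which did not pass, had the highest change of the members. Each run covers 250 bases before and 50 bases after an annotated start site, from RefSeq on build GRCm38.p6. Pdk1 is at chr2:71872974-71873273 (plus strand), Pdha1 at chrX:160138381-160138680 (minus), Idh2 at chr7:80115301-80115600 (minus) and Pdk2 at chr11:95041322-95041621 (minus). Capitals mark GCGTG and ACGTG on either strand, the letters of the core that hypoxia-inducible factor binds.
Pdk1: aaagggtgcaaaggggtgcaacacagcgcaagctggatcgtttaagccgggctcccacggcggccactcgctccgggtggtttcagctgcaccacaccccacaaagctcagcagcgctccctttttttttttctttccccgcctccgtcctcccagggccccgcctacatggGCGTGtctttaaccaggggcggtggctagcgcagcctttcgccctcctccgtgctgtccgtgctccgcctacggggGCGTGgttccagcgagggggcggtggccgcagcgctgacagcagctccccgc
Pdha1: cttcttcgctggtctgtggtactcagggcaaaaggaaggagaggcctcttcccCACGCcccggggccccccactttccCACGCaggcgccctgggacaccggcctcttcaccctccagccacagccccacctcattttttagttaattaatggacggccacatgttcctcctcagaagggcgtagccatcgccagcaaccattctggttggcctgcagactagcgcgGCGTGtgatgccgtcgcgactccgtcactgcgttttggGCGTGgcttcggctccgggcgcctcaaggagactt
Idh2: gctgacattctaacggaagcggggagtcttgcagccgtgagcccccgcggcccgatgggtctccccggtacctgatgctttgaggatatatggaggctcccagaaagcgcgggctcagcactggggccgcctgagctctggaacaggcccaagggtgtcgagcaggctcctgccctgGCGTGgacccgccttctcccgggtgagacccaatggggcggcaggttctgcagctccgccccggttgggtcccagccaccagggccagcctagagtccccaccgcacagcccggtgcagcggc
Pdk2: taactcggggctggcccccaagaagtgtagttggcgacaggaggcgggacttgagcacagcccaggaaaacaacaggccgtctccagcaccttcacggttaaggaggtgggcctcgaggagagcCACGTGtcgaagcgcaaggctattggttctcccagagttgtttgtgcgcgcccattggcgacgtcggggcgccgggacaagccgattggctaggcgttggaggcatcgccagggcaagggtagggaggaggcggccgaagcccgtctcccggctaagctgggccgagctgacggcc
The Pdk1 window holds GCGTG 2 times, with first bases at -78 and -2 from the start. In Pdha1 the same letters occur 4 times and in Idh2 they occur 1 time, and none of these 3 windows holds ACGTG. Pdk2 holds ACGTG on both strands, overlapping in 1 CACGTG (an E-box). The start site used for Idh2 lies 3258 bases downstream of the 5′ end of its longest annotated form. Of 27024 promoters of this length, 43.8% hold GCGTG or ACGTG and 7.24% hold CACGTG. A promoter window was matched for 31 of the 35 members, and 22 of the 31 (71%) hold GCGTG or ACGTG, with a median GC content of 62% against 52.7% over all promoters. The letters were also in windows of members that did not pass, such as Pdk3 and Suclg1. A match describes the sequence and is not evidence of binding.

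In the Cre cells 3 genes of the route fell and 0 rose. Pdk1, a PDH kinase, fell 2.13-fold, Idh2, the mitochondrial NADPH-producing isocitrate dehydrogenase, fell 1.61-fold, and Pdha1, the E1 alpha subunit that the kinases phosphorylate, fell 1.3-fold. Of all genes tested, 2.14% fell and 1.35% rose (3.49% in either direction). Against this, 3 of the 35 members fell (8.57%) and 0 rose. The 2 shares differ in level, since 31 members lay above the median of every array while all genes include dim ones. With the lowest 25% of genes by mean level left out, 556 of all remaining genes fell and 384 rose, and 3 members fell and 0 rose. A background of genes at the members' level was not tested. At an unadjusted p below 0.05, 8 members (22.9%) differed, against 16.1% of all genes. The median change of the members was -0.038, and that of all genes was -0.003. Changes smaller than 0.1 were found for 21 members (60%) and for 54.5% of all genes. There was no overlap between Cre and EV arrays for 11 members (31.4%), against 22.5% of all genes. In 8 of them (22.9%) the Cre arrays were lower, against 12.2% of all genes, and in 3 (8.57%) they were higher, against 10.3%.

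**Figure D1:**
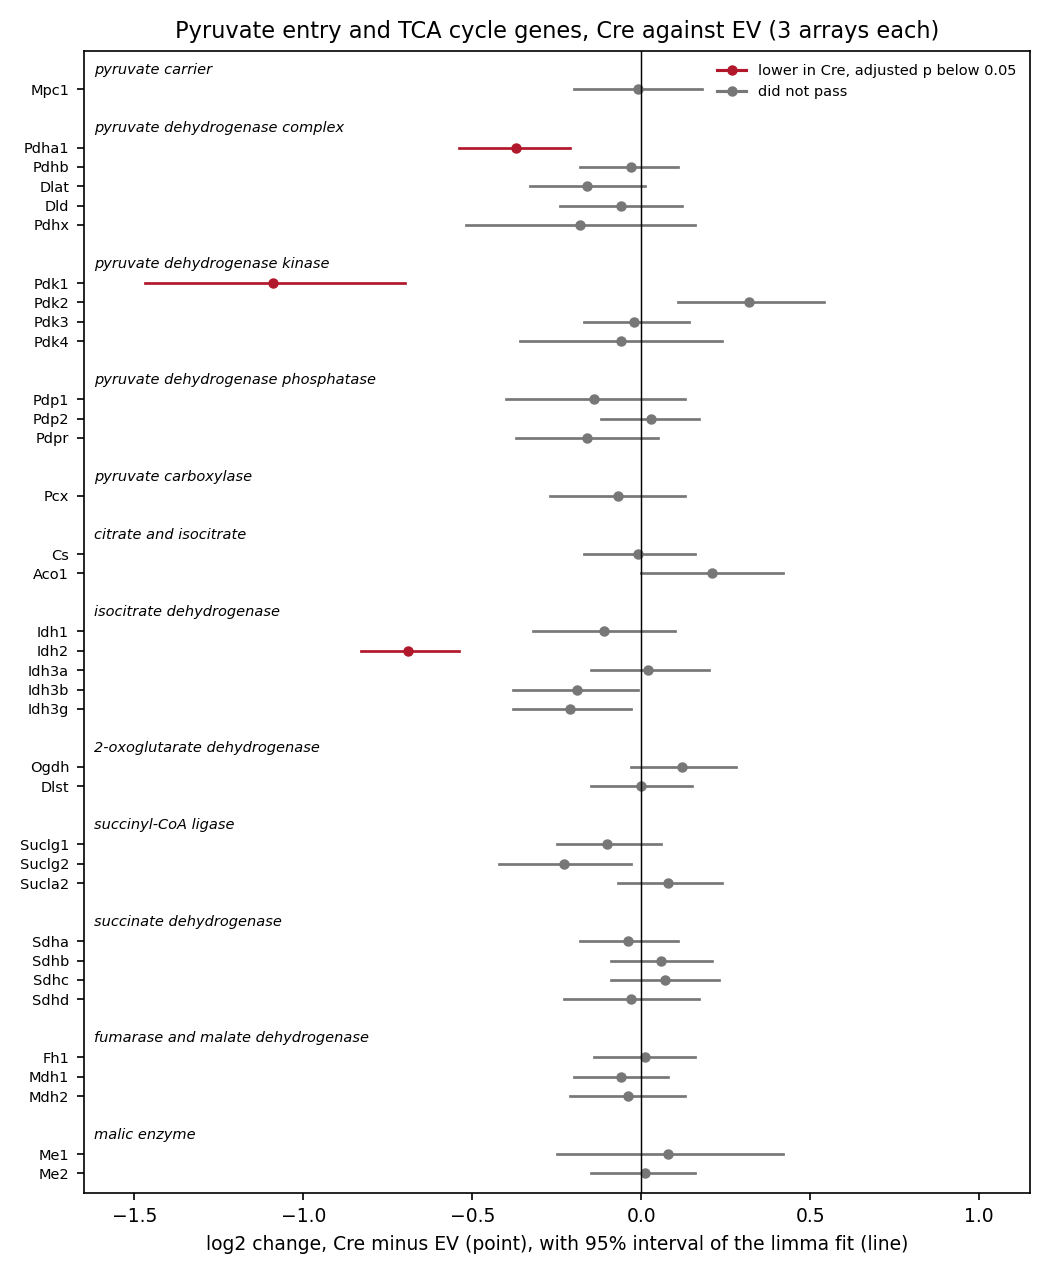
Log2 change of each of the 35 measured members, Cre minus EV (points), with the 95% interval of limma's fit (lines), grouped by role; red marks the members that fell. Pdk1, Idh2 and Pdha1 lie to the left with intervals clear of 0, Pdk2 lies farthest to the right at 0.32, and the intervals of succinate dehydrogenase, fumarase, malate dehydrogenase and the malic enzymes all include 0.

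At the entry of pyruvate, the carrier subunit Mpc1 read 8.52, 8.52 and 8.49 in Cre and 8.46, 8.69 and 8.42 in EV. The groups overlapped, and the change of -0.01 had a 95% interval from -0.20 to 0.18. Pcx, pyruvate carboxylase, which makes oxaloacetate from pyruvate to refill the cycle, lay below the median of every array and differed by -0.07 (SE 0.09).

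Within the PDH complex the E1 alpha subunit was the member that fell. Pdha1 (X chromosome, probe set 10607587) read 8.48, 8.36 and 8.40 in Cre and 8.70, 8.80 and 8.86 in EV. All 3 Cre arrays were lower than all EV arrays, with a change of -0.37 (SE 0.07; limma adjusted p = 0.0328). The call was lost when any 1 of the 6 arrays was left out, with adjusted p-values from 0.0546 to 0.121 and changes from -0.42 to -0.34. Pdhb, its E1 beta partner in the same heterotetramer, read 7.72, 7.66 and 7.61 in Cre and 7.71, 7.69 and 7.69 in EV, and differed by -0.03 (95% interval -0.18 to 0.11). Within each array the difference between Pdha1 and Pdhb changed by -0.34 (SE 0.06), with no overlap between the groups. The exact two-sided permutation test gave p = 0.1, the smallest that 3 arrays against 3 allow, and 0.16 after adjustment over the 8 comparisons of related members.

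The other PDH subunits did not pass. Dlat, the E2 acetyltransferase, differed by -0.16 (SE 0.07; limma adjusted p = 0.351), and Pdhx, which ties E3 to the E2 core, by -0.18 (SE 0.15), with its EV arrays spread from 6.51 to 7.05. Dld, the E3 dehydrogenase that is shared with the 2-oxoglutarate dehydrogenase complex, differed by -0.06 (SE 0.08). Over the 5 measured subunits the median change was -0.158. All 5 values were below 0, as were those of 10044 of the 19733 genes, and 1 of the 5, Pdha1, showed no overlap, against 22.5% of all genes.

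Of the 4 PDH kinases, Pdk1 fell and the others did not pass. Pdk1 (chromosome 2, probe set 10472846), whose promoter is shown above, read 7.29, 6.96 and 6.56 in Cre and 8.09, 7.98 and 8.0 in EV. Every Cre array was lower than every EV array, and the Cre arrays were spread more widely (SD 0.37) than the EV arrays (SD 0.06). The change was -1.09 (SE 0.16; limma adjusted p = 0.0132), which ranked 70 of the 422 genes that fell by size. Leaving out 1 array gave changes from -1.26 to -0.90, and the adjusted p went to 0.0518 without Cre replicate 2, to 0.0574 without EV replicate 1 and to 0.0511 without EV replicate 2.

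Pdk2, a broadly expressed kinase of the same family, read 5.33, 5.30 and 5.26 in Cre and 4.91, 5.16 and 4.85 in EV. Its Cre arrays were above all EV arrays. Array medians lay between 5.22 and 5.27, and the Cre values were just above them while all EV values were below. The change of 0.32 (SE 0.09) did not pass (limma adjusted p = 0.127). Without EV replicate 2, the highest of the EV arrays, the change was 0.42 and passed at an adjusted p of 0.0447. Pdk3 read 7.72, 7.63 and 7.78 in Cre and 7.69, 7.73 and 7.76 in EV, a change of -0.02 with a 95% interval from -0.17 to 0.14. Pdk4, the kinase known for its rise in fasting, was dim on all arrays, between 2.81 and 3.27, and differed by -0.06 (SE 0.13). Set against the mean of Pdk2 and Pdk3 in the same array, Pdk1 differed between Cre and EV by -1.24 (SE 0.22), with no overlap (exact permutation p = 0.1, the smallest possible; adjusted 0.16).

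**Figure D2:**
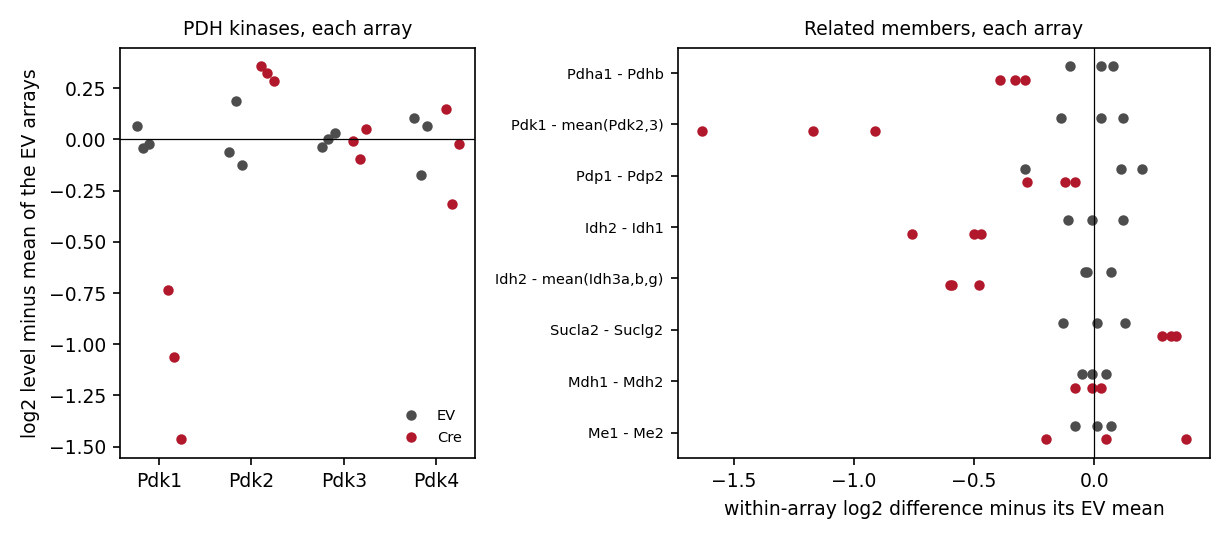
Left, log2 level of the 4 PDH kinases on each array minus the mean of the EV arrays; right, within-array log2 differences between related members, minus their EV mean, for EV (grey) and Cre (red) arrays. The Cre points of Pdk1 lie far below its EV points while those of Pdk3 and Pdk4 overlap. On the right, 5 of the 8 differences show no overlap between groups. All of these but Sucla2 minus Suclg2 hold a member that fell as a single gene. The share without overlap among other gene pairs was not computed.

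The phosphatases that reactivate PDH differed little. Pdp1 read 7.20, 7.04 and 7.24 in Cre and 7.39, 7.05 and 7.45 in EV, a change of -0.14 (SE 0.11) with overlapping groups. Pdp2 differed by 0.03 (95% interval -0.12 to 0.17), and Pdpr, the regulatory subunit, by -0.16 (SE 0.09). None of the 3 passed, and the within-array difference between Pdp1 and Pdp2 changed by -0.16 (SE 0.16; exact permutation p = 0.4, adjusted 0.533).

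At the first steps of the cycle, citrate synthase (Cs) read 9.74, 9.59 and 9.73 in Cre and 9.72, 9.73 and 9.63 in EV, a change of -0.01 with a 95% interval from -0.17 to 0.16. Aco1, the cytosolic aconitase that doubles as the iron sensor IRP1, read 5.51, 5.74 and 5.52 in Cre and 5.38, 5.29 and 5.49 in EV. The Cre arrays were all higher, by a margin narrower than the spread within either group, and the change of 0.21 (SE 0.09) did not pass (limma adjusted p = 0.305).

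Among the isocitrate dehydrogenases the mitochondrial NADP-dependent enzyme fell. Idh2 (chromosome 7, probe set 10564857) read 8.29, 8.36 and 8.38 in Cre and 9.01, 9.06 and 9.01 in EV. The groups were far apart relative to their SDs of 0.05 and 0.03, and the change was -0.69 (SE 0.06; 95% interval -0.83 to -0.54; limma adjusted p = 0.00119). Of the members, Idh2 had the smallest p, ranked 93 of 19733 genes, and it was the 1 member of the 3 that passed in every fit with 1 array left out, with adjusted p-values between 0.00612 and 0.00824.

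Idh1, the cytosolic NADP-dependent counterpart, read 6.99, 6.79 and 6.79 in Cre and 6.83, 7.02 and 7.07 in EV. The groups overlapped, and the change was -0.11 (SE 0.09; 95% interval -0.32 to 0.10). The within-array difference of Idh2 from Idh1 changed by -0.57 (SE 0.11), with no overlap between Cre and EV. Both enzymes make NADPH from isocitrate, in different compartments, and their genes are on chromosomes 7 and 1.

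The subunits of the NAD-dependent Idh3, which runs the cycle's own oxidation of isocitrate, did not pass. Idh3g read 10.05, 10.13 and 10.21 in Cre and 10.25, 10.42 and 10.35 in EV, and Idh3b read 9.22, 9.09 and 9.29 in Cre and 9.32, 9.47 and 9.38 in EV. For both of these the Cre arrays were all lower by a narrow margin, with changes of -0.21 (SE 0.08; limma adjusted p = 0.227) and -0.19 (SE 0.08; adjusted p = 0.289). Idh3a, the catalytic alpha subunit, read 8.09, 8.01 and 8.17 in Cre and 7.97, 8.10 and 8.13 in EV, with a change of 0.02 (95% interval -0.15 to 0.20). Set against the mean of the 3 Idh3 subunits in the same array, Idh2 differed by -0.56 (SE 0.05), again with no overlap. For each of these comparisons the exact permutation test gave p = 0.1, the smallest possible, and 0.16 after adjustment.

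**Figure D3:**
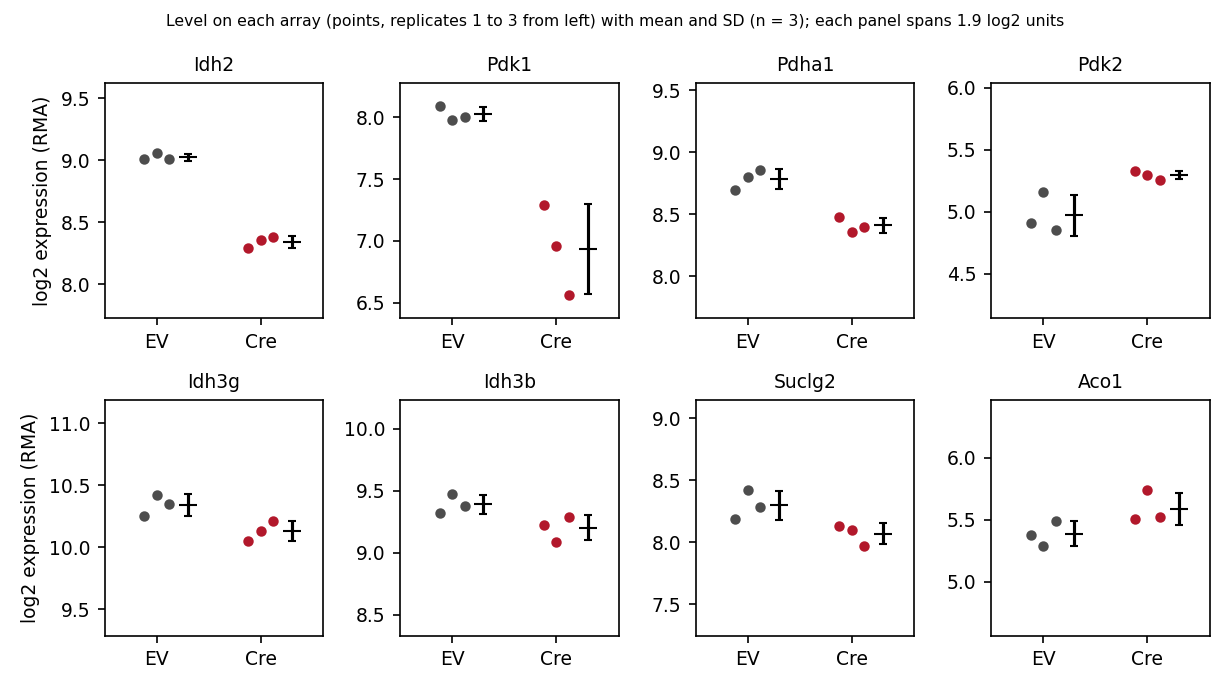
Log2 level on each of the 3 EV (grey) and 3 Cre (red) arrays, with mean and SD (n = 3), for the 3 members that fell and 5 others whose arrays did not overlap; every panel has the same span. The gap between groups exceeds the spread within them for Idh2 and Pdha1, while for Idh3g, Idh3b, Suclg2 and Aco1 the lowest array of one group lies close to the highest of the other.

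The 2-oxoglutarate dehydrogenase step showed no call. Ogdh, its E1, read 7.76, 7.76 and 7.89 in Cre and 7.67, 7.67 and 7.70 in EV, with all Cre arrays higher and a change of 0.12 (SE 0.07; limma adjusted p = 0.428). Dlst, its E2, had equal group means of 8.24, with a 95% interval from -0.15 to 0.15. Succinyl-CoA ligase joins a shared alpha subunit, Suclg1, to a beta subunit that sets whether GTP (Suclg2) or ATP (Sucla2) is made. Suclg2 read 8.13, 8.10 and 7.97 in Cre and 8.19, 8.42 and 8.28 in EV, with all Cre arrays lower and a change of -0.23 (SE 0.08; limma adjusted p = 0.233). A second probe set of this gene gave -0.26. Sucla2 read 8.09, 8.12 and 7.97 in Cre and 8.0, 7.97 and 7.96 in EV, with overlap and a change of 0.08 (SE 0.07). The within-array difference of Sucla2 from Suclg2 was thus higher in Cre by 0.31 (SE 0.08), with no overlap (exact permutation p = 0.1; adjusted 0.16). Suclg1 differed by -0.10 (SE 0.07).

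From succinate onward no member passed and every change was below 0.1 in size. The 4 subunits of succinate dehydrogenase, which is also complex II of the respiratory chain, ranged from -0.04 for the flavoprotein Sdha to 0.07 for the membrane anchor Sdhc, with Sdhb, the iron-sulfur subunit, at 0.06 and the anchor Sdhd at -0.03. Fh1, fumarase, read 8.93, 8.84 and 8.94 in Cre and 8.83, 8.92 and 8.92 in EV (95% interval of the change -0.14 to 0.16). Mdh1, the cytosolic malate dehydrogenase of the malate-aspartate shuttle, differed by -0.06 (SE 0.06), and Mdh2, the mitochondrial enzyme of the cycle, by -0.04 (SE 0.07). Me2, the mitochondrial malic enzyme, which returns malate to pyruvate, differed by 0.01 (95% interval -0.15 to 0.16). Me1, the cytosolic NADP-dependent form, was dim, at 4.84 to 5.39 in Cre and 4.87 to 5.18 in EV, and differed by 0.08 (SE 0.14). A second probe set of Me1 also gave 0.08. The within-array differences of Mdh1 from Mdh2 and of Me1 from Me2 changed by -0.02 (SE 0.04) and 0.07 (SE 0.17), and exact permutation tests gave p = 0.7 and p = 0.8 (both 0.8 after adjustment).

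A p above the threshold does not show that a gene stayed the same, so the intervals give a range for each change. Each interval is for 1 gene at a time and does not cover the members jointly. For all 32 members that did not pass, the 95% interval lay within a 1.5-fold change in either direction. For 17 of them it lay within 0.25 on the log2 scale. For 5 of them (Pdk2, Idh3g, Suclg2, Idh3b and Aco1) it did not include 0 before adjustment for the number of genes. Because the arrays were quantile normalized, a change is measured against the rest of the same array. Pdk4 and Pcx lay below the median of every array, and how far their changes are compressed was not tested.

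Beside the route, 7 lists of neighbouring steps held 45 genes, of which 39 were measured. Of these 4 fell and none rose, where 2.14% of all genes fell and 1.35% rose, and their median change was -0.023 (all genes -0.003). Of the 4, 3 were on the list of pyruvate supply and lactate, where 3 of 5 genes fell. Slc16a3, the lactate exporter MCT4, read 6.58, 6.26 and 6.28 in Cre and 7.43, 7.35 and 7.66 in EV and fell 2.15-fold (limma adjusted p = 0.00241). Ldha, which turns pyruvate into lactate, read 10.17, 10.03 and 10.14 in Cre and 10.56, 10.55 and 10.53 in EV and fell 1.35-fold (adjusted p = 0.0129), and Pkm, the pyruvate kinase that makes the pyruvate, fell 1.34-fold (adjusted p = 0.0346). For these genes all Cre arrays were lower than all EV arrays. Pkm kept its call only without Cre replicate 1 among the 6 fits that left out an array (highest adjusted p = 0.118). Ldha lost its call in 3 of these, without EV replicate 1, EV replicate 2 or Cre replicate 2 (highest adjusted p = 0.0546).

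Of 9 measured genes by which glutamine and aspartate enter the cycle, 1 fell. Slc1a5, the glutamine transporter ASCT2, read 10.12, 10.16 and 10.21 in Cre and 10.78, 10.88 and 10.91 in EV and fell 1.62-fold (limma adjusted p = 0.00172), with adjusted p-values between 0.0056 and 0.0114 when 1 array was left out. None of 8 genes of citrate, malate and acetyl-CoA exit passed. Pck2, the mitochondrial phosphoenolpyruvate carboxykinase, read 7.06, 7.14 and 7.23 in Cre and 7.73, 7.67 and 7.40 in EV and differed by -0.46 (SE 0.10; adjusted p = 0.0539), and without EV replicate 3 it passed at an adjusted p of 0.0256.

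None of the 4 genes of cofactor supply passed, where Slc25a42, a coenzyme A carrier, came closest with 0.17 (SE 0.10). Of the 4 assembly factors of succinate dehydrogenase, Sdhaf3 had the smallest p and differed by -0.27 (SE 0.09; limma adjusted p = 0.166). The 7 genes of other alpha-keto acid dehydrogenases had a median change of 0.019 and no call, with Ogdhl closest to the threshold at 0.15 (SE 0.11). Nnt, the mitochondrial transhydrogenase that also makes NADPH, read 7.75, 7.81 and 7.82 in Cre and 7.68, 7.76 and 7.86 in EV and differed by 0.03 (95% interval -0.14 to 0.19).

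**Figure D4:**
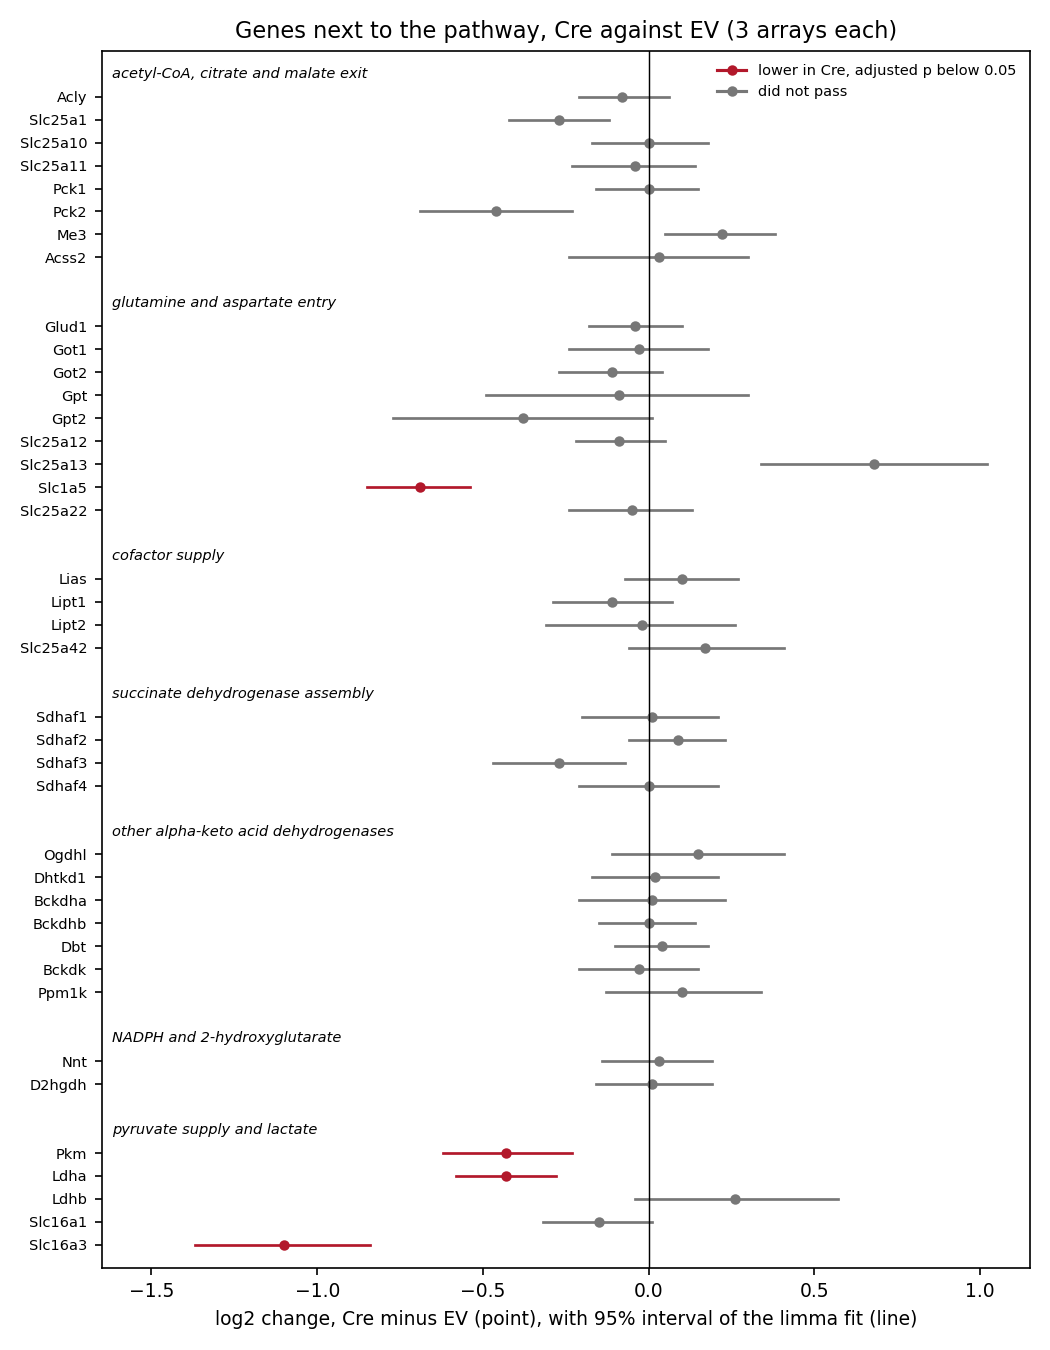
Log2 change, Cre minus EV (points), with 95% interval of limma's fit (lines), of the 39 measured genes on the 7 neighbouring lists; red marks the 4 that fell. Slc16a3, Ldha, Pkm and Slc1a5 lie left of 0, while the lists of cofactor supply and other alpha-keto acid dehydrogenases sit around 0.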

How the data were processed

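Levels were used as deposited by the authors, as log2 values, 1 per probe set and array, made with RMA, per the submitters' processing notes. RMA corrects background, normalizes arrays by quantiles and summarises probes. The version and chip definition were not given in the sources used here. Medians of the 6 arrays lay between 5.22 and 5.27, and the number of arrays limits the precision. No detection calls were used, and how far changes of dim genes are compressed was not tested.

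Of 25006 probe sets, 21467 had 1 gene symbol, 1521 several and 2018 none in the platform annotation, and 21386 of the first were matched by gene ID to RefSeq (GRCm38.p6), used for names, positions and promoters. Probe sets with several symbols or none were left out of the main test, which had 19733 genes. Probe sets of genes with near-identical copies cannot separate them.

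Groups were taken from the titles. Cre was compared with EV in limma 3.58.1 (R 4.3.3; lmFit, eBayes, no block), with Benjamini-Hochberg adjustment over all genes. Related members were compared by exact permutation of within-array differences. Tables and plots used Python 3.11.15, pandas 2.3.3 and matplotlib 3.10.9. On data simulated from this comparison of 19733 genes, the fit recovered 44% of changes of 0.5 and 90% of changes of 1 on the log2 scale, with 9 false calls. Every measured member is named. Values of all 6 arrays were to be given for members that passed, for others without overlap and a change of at least 0.25, and for their relatives, and were added for further members after the values were seen. Of each neighbouring list, the genes that passed or the 1 with the smallest p are named. The members and lists were chosen with earlier results of these data known. Same-numbered Cre and EV arrays did not deviate together.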

Additional observations from a re-analysis of the deposited data

How the results depend on the processing

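Over the 14 alternatives, Idh2 passed in each, Pdk1 lost its call only without EV replicate 1, EV replicate 2 or Cre replicate 2, and Pdha1 lost it when any 1 array was left out and with the replicate block (adjusted p = 0.104). Deviations of same-numbered Cre and EV arrays were close to uncorrelated, with r of 0.0094, -0.012 and 0.0304. The labels do not say whether such arrays shared a culture or mouse, and these values cannot show that they did not. With the replicate block, 157 genes rose and 268 fell over all genes, 2 members and 2 neighbouring genes fell, Pkm (adjusted p = 0.0804) and Ldha (0.0512) having lost the call, and 1 neighbouring gene, Slc25a13, rose. With trend and robust settings, 640 rose and 918 fell over all genes, 4 members fell, Idh3g among them (adjusted p = 0.023), and 6 neighbouring genes fell and 1 rose. Centring arrays on their medians also let 1 neighbouring gene rise, and the median change of all genes then moved to 0.003. Leaving out 1 array gave 138 to 169 rises and 215 to 270 falls over all genes, 0 to 1 rises and 1 to 2 falls among members, and 2 to 5 falls among neighbouring genes, with fewer arrays in each such fit. Changes of members near 0 crossed it: Mpc1 with array weights (0.00), and Pdk3 (0.00) and Cs (0.01) with quantile normalization once more. Without 1 array, the ranges were -0.06 to 0.07 for Mpc1, -0.05 to 0.02 for Pdk3, -0.16 to 0.07 for Pdk4, -0.04 to 0.04 for Cs, -0.02 to 0.06 for Idh3a, -0.08 to 0.04 for Sdhd, -0.02 to 0.04 for Fh1, -0.08 to 0.01 for Mdh2, -0.06 to 0.22 for Me1 and -0.03 to 0.05 for Me2. Why these values moved was not tested. The median over the members stayed between -0.059 and -0.023. For array data of this size, changes of about 0.5 on the log2 scale or less can be missed.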

Other observations

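Slc25a13, a mitochondrial aspartate-glutamate carrier picked here after its values were seen, was the neighbouring gene farthest above 0. It read 4.27, 4.05 and 4.55 in Cre and 3.42, 3.58 and 3.83 in EV, below the median of every array. Its change of 0.68 (SE 0.15) did not pass (limma adjusted p = 0.0538), while its relative Slc25a12, which carries the same metabolites, differed by -0.09.

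Among the Cre arrays, replicate 3 had the lowest level of Ppp2r1a (6.92), Pdk1 (6.56) and Pkm (9.95), and replicate 1 the highest of each (7.12, 7.29 and 10.23). Slc16a3, Ldha and Pdha1 were lowest in replicate 2 instead, at 6.26, 10.03 and 8.36. Idh2 and Slc1a5 ran the other way, lowest in replicate 1 (8.29 and 10.12) and highest in replicate 3 (8.38 and 10.21). These arrays were singled out after their values were seen, and with 3 arrays no relation was tested.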
